A study of Mus musculus with 38 samples.

Results

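The H3K27ac landscape of cultured mouse cortical neurons is given here as a pair of merged peak lists, 1 from silenced neurons and 1 from neurons depolarised with KCl. The lists come from 4 of the 38 samples of the series, those immunoprecipitated for histone H3 acetylated at lysine 27 with the antibody ab4729, and every peak of both whole-genome lists was used. The list from silenced neurons holds 30239 peaks and the list after KCl holds 29418. Within these, the authors marked a distal subset of 19628 and 18556 peaks. The peaks outside it are called non-distal below, and the sources used here do not give the rule that defined the subset.

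Acetylation of H3 at lysine 27 is laid down by the coactivators CBP and p300 and marks promoters and enhancers that are active, so its gain or loss away from promoters is commonly read as a change in enhancer activity. In neurons, depolarisation opens calcium channels and induces transcription factors within the hour, including c-Fos, FosB and JunB, which belong to the AP-1 family. AP-1 proteins bind DNA as dimers of a Fos and a Jun member, or of Jun members alone, and many of their neuronal sites lie in distal regulatory elements.

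All neurons came from the cortex of C57BL/6 embryos of day 16.5 and had 7 days in vitro. Silencing began on day 6 and ran overnight, with the sodium channel blocker TTX at 1 µM and the NMDA receptor antagonist DL-AP5 at 100 µM, so both groups carry these agents. One group was left silenced and is called unstimulated, and the other received KCl for 2 h. Each H3K27ac list merges biological samples 1 and 2, so there is 1 list per condition and no replicate error for any H3K27ac value below. AP-1 peak lists from other neurons, biological samples 3 to 6, were called library by library and serve as a replicated readout that had no part in making the H3K27ac lists. Biological samples 5 and 6 had been infected with a control shRNA and had no unstimulated partner. The labels call the cells neurons, and their identity could not be checked on marker genes because no gene annotation of the build of the files, mm9, was used here. Read counts are not part of the lists, so sequencing depth is unknown throughout. The 4 H3K27ac samples carry no list of their own here, so biological samples 1 and 2 could not be compared.

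Acetylation was spread over nearly the same length of genome in both conditions, but its division between distal and non-distal peaks differed. The unstimulated peaks covered 80.2 Mb and the KCl peaks 81.1 Mb. Distal peaks covered 48.3 Mb without stimulation and 46.3 Mb after KCl, whereas non-distal peaks covered 31.9 Mb and 34.8 Mb. The median distal peak was about as wide in both lists, at 2197 bp and 2224 bp. The median non-distal peak was 2549 bp wide without stimulation and 2739 bp after KCl. Peaks over 5 kb numbered 1430 in the unstimulated list and 1660 in the KCl list, and those over 10 kb numbered 135 and 166.

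The score is the authors' own value for each peak and follows the scale of MACS, rising with the negative log10 of the p-value from a floor of 50. It was used to rank peaks within a list. The lowest scores kept were 50.01 and 50. Median distal scores were 165.76 and 165.93, and median non-distal scores were 625.38 and 872.85. Scores pile up at the upper end of the scale: 7.77% of non-distal peaks reached 3100 or more without stimulation and 12.8% after KCl, against 1.13% and 1.17% of distal peaks. Wide peaks had high scores, with a Spearman correlation of 0.84 across the peaks of either list, given as a description since width and score share the same reads. Since depth could differ between the lists, a higher score of the whole list was not read as more acetylation.

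The 3 widest peaks lay in the same places in both conditions. The widest peak lay on chromosome 13, from 78300469 to 78352178 in silenced neurons, 51710 bp, and from 78300285 to 78352267 after KCl, 51983 bp. The next was also on chromosome 13, from 83851693 to 83891055, 39363 bp, and measured 42775 bp after KCl. The third widest lay on chromosome 1 from 42733772 to 42772217 and was 38446 bp wide, against 37703 bp after KCl. All 3 were non-distal peaks. Thus 2 of these 3 intervals were wider and 1 was narrower after KCl. No sequence is shown for any peak, since a genome of build mm9 was not used here, and peaks are given by position with no gene assigned.

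Most peaks were present in both conditions, and those present in only 1 were nearly all distal. A peak with no overlap of at least 1 bp with any peak of the other whole-genome list is called gained when it was in the KCl list and lost when it was in the unstimulated list. Over the whole genome, 5329 of 29418 KCl peaks were gained (18.1%) and 6105 of 30239 unstimulated peaks were lost (20.2%). With the longer list trimmed by score to the length of the shorter, gains and losses over the whole genome were nearly equal, at 5643 (19.2%) and 5613 (19.1%). Among distal peaks these shares were 26% gained (4824 of 18556, Wilson 95% interval 25.4 to 26.6%) and 29.9% lost (5872 of 19628, 29.3 to 30.6%). Among non-distal peaks they were 4.65% gained (505 of 10862, 4.27 to 5.06%) and 2.20% lost (233 of 10611, 1.93 to 2.49%). Losses thus outnumbered gains among distal peaks, and gains outnumbered losses among non-distal ones. Distal peaks made up 90.5% of all gained and 96.2% of all lost peaks, against 63.1% and 64.9% of the lists they were drawn from. The intervals cover counting error alone and not the difference between neurons of separate preparations.

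Gained and lost peaks were for the most part the weak and narrow ones. In the lowest score quintile of the distal KCl peaks, 53.8% were gained, and the share was 39.6%, 24.2%, 10.4% and 1.94% in the successive quintiles. The share lost fell along the unstimulated distal list in the same way, from 59.6% through 46.4%, 29.4% and 12.3% to 1.91%. By width, the gained share went from 49.9% in the narrowest quintile to 5.85% in the widest, and the lost share from 58.4% to 4.76%. The median score was 87.6 for gained distal peaks, against 227 for the distal KCl peaks that were shared. It was 90.7 for lost distal peaks, against 242 for the shared ones. A score of at least 100 was held by 40.96% of gained and 42.9% of lost distal peaks. Counting only peaks of that score against the full other list, 15.3% of distal KCl peaks were gained and 18.3% of distal unstimulated peaks were lost. How many of the weaker gains and losses came from a small difference in signal or depth near the floor was not tested.

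**Figure D1:**
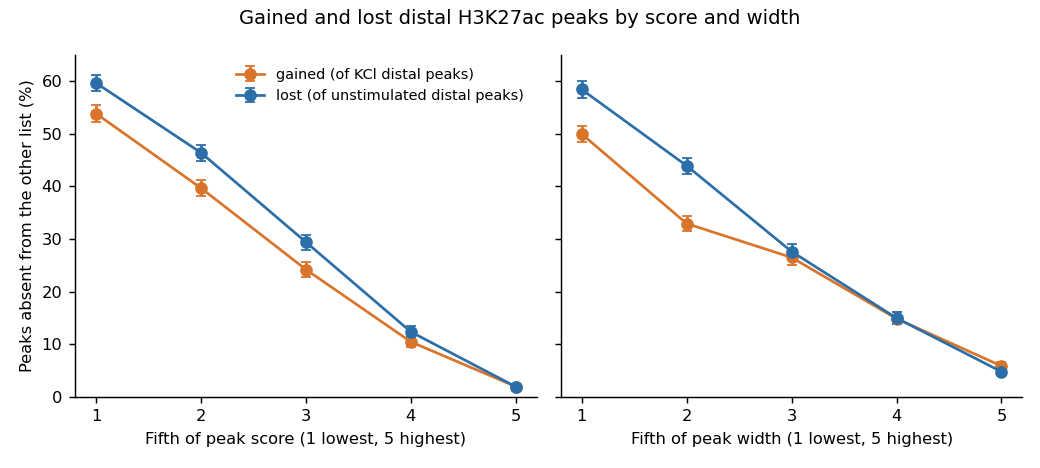
Share of distal H3K27ac peaks with no overlapping peak in the other list (vertical axis, %), by quintile of score (left) and of width (right); orange shows gained peaks as a share of KCl peaks, blue shows lost peaks as a share of unstimulated peaks, and bars are Wilson 95% intervals. Both shares go from over 50% in the lowest score quintile to under 2% in the highest, and the lost share lies above the gained share in the 4 lower score quintiles.

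Strong peaks were nonetheless gained and lost in some places. Of the gained distal peaks, 576 (11.9%) had a score of at least 200, as did 693 (11.8%) of the lost ones. The highest score of a gained distal peak, 1425.93, belonged to a peak of 4134 bp on chromosome 11 from 79270973 to 79275106. The next 4 lay on chromosome 5 from 130701759 to 130705074 (score 1380.28), chromosome 14 from 15183380 to 15188454 (1374.72), and chromosome 19 from 16401252 to 16404866 (1315.48) and from 57438577 to 57444150 (1276.86). Of these 5, all but the peak on chromosome 5 held at least 1 of the distal CBP and H3K4me1 sites that the authors class as increasing in H3K27ac. The strongest lost distal peak lay on chromosome 17 from 34913665 to 34916597 and had a score of 1132.43. It was followed by peaks on chromosome 17 from 29312028 to 29315084 (1100.65), chromosome 15 from 67515842 to 67520886 (1003.7), chromosome 11 from 6007045 to 6012000 (1003.28) and chromosome 5 from 37472407 to 37476851 (961.78). None of these 5 lost peaks held a CBP and H3K4me1 site. Such a site lay in 12.6% of all lost distal peaks, so its absence was the common case. An increasing site lay in 18.6% of all gained distal peaks, and that class was itself set on H3K27ac.

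Shared peaks mostly kept their place. Of the places where the lists overlap, 23347 joined exactly 1 peak of each list, and these are called matched pairs. In 197 places 1 unstimulated peak met 2 or more KCl peaks, in 232 places 2 or more unstimulated peaks met 1 KCl peak, and in 56 places several met several. The matched pairs were distal in both lists in 13148 cases, non-distal in both in 10153 and of unlike class in 46. The centres of matched distal peaks lay a median of 117.5 bp apart, and 6.59% were more than 500 bp apart. For non-distal pairs the median was 95.5 bp and the share 4.27%.

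Non-distal peaks were wider after KCl, and distal peaks differed in both directions. The median log2 ratio of KCl width to unstimulated width was 0.09 over non-distal pairs (quartiles -0.01 and 0.21) and -0.01 over distal pairs (quartiles -0.21 and 0.18). KCl peaks were the wider in 72.1% of non-distal and 47.7% of distal pairs. The KCl interval contained the whole unstimulated interval in 45.9% of non-distal pairs, and the reverse was seen in 12.9%. For distal pairs these shares were 28.5% and 33.5%. At non-distal peaks both edges had moved outward, by medians of 70 bp on the left and 69 bp on the right. At distal peaks both had moved inward, by medians of 14 bp and 13 bp.

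Large changes in width were few. Over all matched pairs, 4.3% were at least 1.5-fold wider after KCl and 3.79% at least 1.5-fold narrower. Distal pairs held 713 of the wider (5.42% of distal pairs) and 822 of the narrower ones (6.25%). Non-distal pairs held 285 wider (2.81%) and 54 narrower ones (0.53%). Large changes of non-distal peaks were therefore mostly toward greater width, whereas those of distal peaks were divided between the directions. On either side of the threshold the nearest ratios were 1.4998 and 1.5.

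The order of the peaks by score gave a similar picture. Each matched pair was ranked by score among all matched pairs in each condition, in percentile points from 0 to 100, and the rank change is the KCl rank minus the unstimulated rank. Over all pairs, 10.5% were up by at least 20 points and 11.2% down by at least 20. Of distal pairs, 1332 were up (10.1%) and 2374 down (18.1%). Of non-distal pairs, 1114 were up (10.97%) and 219 down (2.16%). The median change was -2.81 points for distal and 2.71 for non-distal pairs. Ranks are relative, so a gain of one class is a loss of the other: ranked among distal pairs alone, the distal median was 0.16, and ranked among non-distal pairs alone, the non-distal median was -0.86. The rank changes nearest the threshold were 19.998 and 20.003 points.

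Rank and width moved together at the same peaks. Of the 713 distal pairs at least 1.5-fold wider, 466 (65.4%) were also up by at least 20 points, and 1 was down by as much. Of the 822 narrower pairs, 640 (77.9%) were down by at least 20 points, and none was up by as much. The converse was weaker, since 34.98% of the distal pairs up by 20 points and 26.96% of those down by 20 points had passed the width threshold. Across distal pairs the Spearman correlation of width change and rank change was 0.77, and across non-distal pairs it was 0.53, both as descriptions of measures from the same reads. The order of non-distal peaks was the more stable, with a Spearman correlation of the scores in both conditions of 0.90 over 10153 pairs, against 0.67 over 13148 distal pairs.

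**Figure D2:**
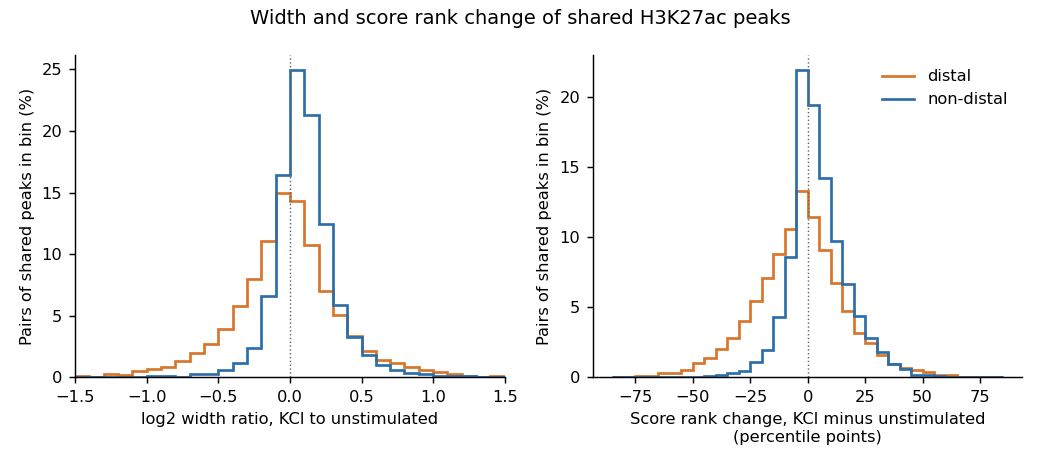
Distribution of the log2 ratio of KCl width to unstimulated width (left, bins of 0.1) and of the score rank change in percentile points (right, bins of 5) over matched pairs, as the share of pairs in each bin (%), for 13148 distal (orange) and 10153 non-distal (blue) pairs. The non-distal distribution is narrow and centred to the right of 0 (median log2 ratio 0.09), and the distal one is broad on both sides of 0, with more large falls than large rises in rank.

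The largest rise in rank among distal pairs was on chromosome 13 from 108600935 to 108605557. The score there was 57.95 without stimulation and 1731.87 after KCl, the rank went from 2.07 to 84.6, and the width from 2465 bp to 4623 bp. A peak on chromosome 17 from 8697816 to 8703093 went from a score of 80.26 to 2401.99, and 1 on chromosome 12 from 101804746 to 101811261 went from 82 to 2149.27. In each of these 3 places a peak near the floor became 1 of the strongest distal peaks. The largest fall was on chromosome 3 from 78826051 to 78829229, where the score was 1194.78 without stimulation and 57.15 after KCl, with a width of 3179 bp and 1378 bp. A peak on chromosome 9 from 112001446 to 112008005 went from 1249.21 to 66.67 and from 6560 bp to 2202 bp. These falls ended just above the floor, close to a full loss.

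The largest change in width was on chromosome 15, where a peak of 1023 bp with a score of 60 became 1 of 8881 bp with a score of 691.17, from 25293063 to 25301943. A peak on chromosome 4 from 97613962 to 97621461 went from 1300 bp to 7500 bp, although its score after KCl was 178.01. The greatest narrowing was on chromosome 13 from 59035127 to 59042430, from 7304 bp to 1518 bp, with scores of 394.24 and 82.55. Widened peaks thus differed widely in the score they reached.

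Changes were shared between neighbours along the chromosome. For successive matched distal pairs no more than 5 kb apart, the rank changes had a Spearman correlation of 0.33 over 1446 neighbours. The correlation was 0.30 for gaps from 5 kb to 12500 bp (1350 neighbours), 0.22 from 12500 bp to 50 kb (3465), 0.17 from 50 to 100 kb (2004) and 0.06 over 100 kb (4857). For the width ratio it went from 0.27 at the shortest gaps to 0.07 at the longest. Where both neighbours had changed by at least 20 points, they had changed in the same direction in 123 of 136 cases (90.4%) up to 5 kb and in 247 of 437 (56.5%) over 100 kb. Falls of this size were more common than rises among distal pairs, at 2374 and 1332. Unrelated pairs would therefore also share a direction more often than not, so the share over 100 kb is not read as agreement. Neighbouring peaks share libraries and local read background, and these values are descriptions with no test.

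Shared peaks next to gained peaks differed from those next to lost peaks. Within 12500 bp of a gained peak and of no lost peak lay 1433 matched distal pairs, with a median rank change of 2.48 points (quartiles -6.45 and 15.4) and a KCl peak that was the wider in 63.0%. Near a lost peak alone lay 1708 pairs, with a median of -10.1 points (quartiles -23.2 and 1.28) and a wider KCl peak in 32.7%. The 9854 pairs near neither had a median of -2.53 points and a wider KCl peak in 48.1%. Near both kinds lay 153 pairs, with a median of -4.17 points. A rise of at least 20 points was seen in 18.8% of pairs near a gained peak and in 4.98% of those near a lost peak.

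**Figure D3:**
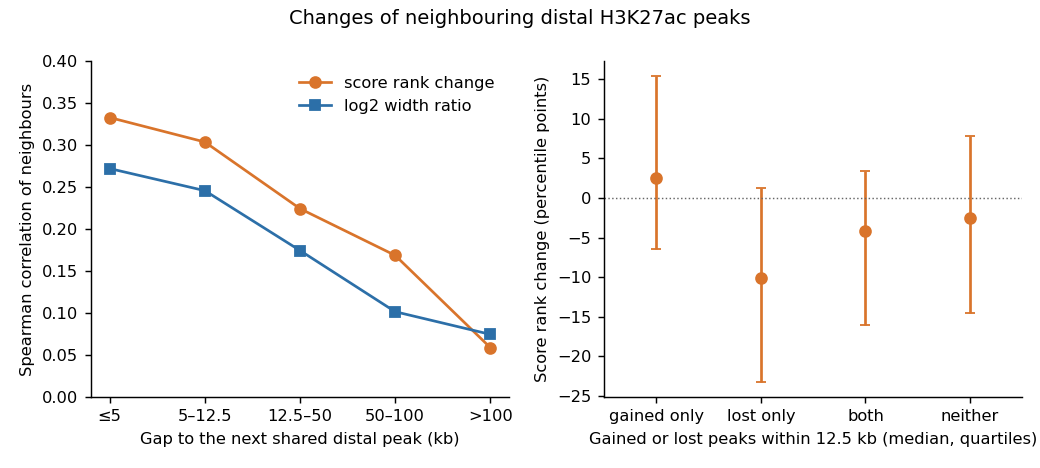
Left, Spearman correlation between successive matched distal pairs for the score rank change (orange) and the log2 width ratio (blue), by the gap between them in kb; right, median score rank change in percentile points, with quartiles as bars, of matched distal pairs with gained peaks only, lost peaks only, both or neither within 12500 bp. The correlation of rank changes goes from 0.33 to 0.06 with distance, and the median is 2.48 points near gained and -10.1 points near lost peaks.

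Gained and lost peaks also followed each other. With the peaks of both lists joined into 1 order, the next one after a gained peak was gained in 21.9% of cases and lost in 13.7%. After a lost peak the next was lost in 26.8% and gained in 12.2%. After a shared peak it was gained in 14.4% and lost in 15.7%. In this order of 35266 peaks, 15.1% were gained and 17.3% lost. There were 227 runs of at least 3 gained peaks with no other peak between, the longest of 7, and 366 runs of at least 3 lost peaks, the longest of 8. Such runs held 14.5% of gained and 21.1% of lost peaks, and no limit was set on the distance within a run. A run of 7 gained peaks spanned chromosome 13 from 9359907 to 9646485, and another lay within 57.8 kb on chromosome 17 from 26711998 to 26769817. The run of 8 lost peaks lay on chromosome 5 from 113072409 to 113273827. Gained and lost peaks were thus partly grouped by direction, and the next peak was shared after 64.4% of gained and 61.1% of lost peaks.

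By definition no gained or lost peak overlapped a peak of the other list, and their distances to it varied widely. The nearest unstimulated peak lay a median of 17.6 kb from a gained distal peak, and within 1 kb for 5.00% of them. The nearest KCl peak lay a median of 19.4 kb from a lost distal peak, and within 1 kb for 4.48%. Within 12500 bp of a peak of the other list were 41.2% of gained and 38.6% of lost distal peaks. Further than 100 kb from any peak of the other list were 505 gained (10.5%) and 628 lost distal peaks (10.7%).

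The spacing of the whole landscape differed little between conditions. The median gap between neighbouring peaks was 29.3 kb without stimulation and 30.2 kb after KCl. Distal peaks were 37.1 kb and 40.3 kb apart, and non-distal peaks 77.6 kb and 77.2 kb. Peaks joined over gaps of up to 12500 bp formed 21391 domains in silenced neurons and 20978 after KCl, and 377 and 348 of them held at least 5 peaks. Large domains also cover more sequence and so have more chance of an overlap. Of the large domains, all 377 unstimulated ones and all but 1 of the 348 KCl ones held a peak of the other list, whereas 20.2% and 18.3% of single-peak domains did not. The largest domain lay on chromosome 14 from 64837152 to 65074028, with 29 peaks over 237 kb in silenced neurons, and 24 KCl peaks lay in the same span. The largest KCl domain lay within it, from 64918275 to 65073785, and held 17 peaks over 156 kb. On chromosome 4 from 82109413 to 82239441 the difference was the opposite, with 11 peaks after KCl and 6 without stimulation.

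Every autosome and chromosome X had gained and lost peaks, in unequal measure. Over the 19 autosomes the number of KCl peaks was 0.92 times (chromosome 11) to 1.04 times (chromosome 13) the unstimulated number, and 15 of the 19 had fewer peaks after KCl. The gained share of distal peaks ran from 20.4% on chromosome 11 (Wilson 95% interval 18.1 to 22.9%) to 30.4% on chromosome 10 (27.5 to 33.5%). The lost share ran from 27.3% on chromosome 13 (24.5 to 30.3%) to 34.5% on chromosome 15 (31.5 to 37.7%). The lost share was the larger on 16 of the 19 autosomes. Chromosome X held 600 and 615 peaks, of which 42.0% and 41.0% were distal, a smaller share than on any autosome, where 55.3% to 71.6% of KCl peaks were distal.

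The authors' list of 11830 distal sites with CBP and H3K4me1 was compared with the gained, lost and shared peaks. H3K4me1 marks enhancers, and CBP is among the enzymes that acetylate lysine 27. Such a site lay in 25.5% of gained distal peaks (Wilson 95% interval 24.3 to 26.8%), in 12.6% of lost ones (11.7 to 13.4%) and in 27.3% of shared distal KCl peaks. Per length, gained peaks held 140 sites per Mb, lost peaks 69.4 and shared KCl intervals 116. The sources used here do not give the condition in which CBP was mapped. The authors' 1468 increasing, 800 constant and 738 decreasing sites were classed on H3K27ac itself, so their place among these peaks is a description. Gained distal peaks held 65.4% of the increasing sites and lost distal peaks 60.7% of the decreasing ones. The increasing sites in matched pairs sat in 406 peaks with a median log2 width ratio of 0.55 and a median rank change of 34.0 points. The 249 pairs with a decreasing site had medians of -0.54 and -41.0 points. The 700 pairs with a constant site had medians of -0.01 and -3.50 points.

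The share of distal peaks holding a c-Fos peak gave an independent comparison, since c-Fos was mapped in biological samples 3 to 6. There were 6 c-Fos libraries after KCl, made with sc52 and sc7202 from biological samples 3 and 4 and with sc52 from the control shRNA neurons of 5 and 6. Libraries of the same biological sample were averaged first. Before the distal results, the non-distal shares show how unlike these samples were: 44.2%, 11.8%, 46.4% and 13.3% of matched non-distal pairs held a c-Fos peak in biological samples 3, 4, 5 and 6. Samples 3 and 5 stood apart from 4 and 6, by up to 3.93-fold. From the lowest to the highest sample, the spread was 1.48-fold over gained, 1.96-fold over matched and 2.20-fold over lost distal peaks, and 2.47-fold over the most narrowed quintile of matched distal pairs described below. What set the non-distal shares was not tested.

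Distal peaks that were gained held c-Fos more often than those that were lost, in every biological sample. In samples 3, 4, 5 and 6, c-Fos lay in 30.3%, 20.5%, 26.6% and 27.6% of gained distal peaks. It lay in 9.66%, 4.40%, 7.66% and 6.54% of lost distal peaks. The highest lost share was below the lowest gained share, so the groups did not overlap. The means were 26.2% ± 4.14 and 7.07% ± 2.20 (SD, n = 4), and matched distal pairs lay between, at 18.4% ± 5.20. The difference between gained and lost peaks was 19.2 percentage points ± 2.25 (SD, n = 4), positive in 4 of 4 samples, with an exact two-sided sign-flip permutation p = 0.13 and a Benjamini-Hochberg adjusted p = 0.13 over 4 comparisons. This is the smallest p that 4 samples allow, so the design cannot reach 0.05. Gained peaks held c-Fos 3.13 to 4.65 times as often as lost peaks. With c-Fos peaks of a score of at least 100 alone, the difference was 12.2 points and stayed positive in 4 of 4 samples.

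The unstimulated libraries and the other AP-1 proteins give the background and the range. In silenced neurons c-Fos lay in 0.46% of gained and 0.41% of lost distal peaks (4 libraries of 2 biological samples). Those libraries held 557 to 3669 peaks, against 6808 to 28885 in the KCl c-Fos libraries of the same samples. The direction was not the same in all 4, since sc52 of sample 4 gave 0.23% and 0.39%. Unstimulated FosB lay in 0.82% of gained and 1.07% of lost distal peaks (2 libraries), and unstimulated JunB in 1.89% and 2.08% (1 library), with lost above gained for both. FosB after KCl lay in 17.6% ± 8.46 of gained and 5.15% ± 3.59 of lost distal peaks (SD, n = 4), a difference of 12.4 points (exact sign-flip permutation p = 0.13). JunB, from 1 library, lay in 29.5% of gained and 9.79% of lost distal peaks. Gained and lost non-distal peaks, added after the distal result was seen, differed by 11.9 points ± 7.44 (SD, n = 4). That difference was smaller than the distal one and varied more between samples. The unstimulated background was higher at non-distal peaks, with c-Fos in 4.85% of gained and 3.00% of lost ones. With sc52, the gained non-distal share was 8.12% without stimulation and 27.9% after KCl in sample 3. In sample 4 it was 7.52% and 8.12%. With sc7202 it was 3.17% and 22.4% in sample 3, and 0.59% and 10.7% in sample 4. The share in sample 4 was thus nearly as high without stimulation with sc52, but far lower with sc7202. What set the antibodies apart was not tested.

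Most gained, lost and matched distal peaks had no c-Fos peak. Of 4824 gained distal peaks, 2740 (56.8%) overlapped none of the 6 libraries and 502 (10.4%) overlapped all 6. Of 5872 lost distal peaks, 83.2% overlapped none and 1.07% all 6. Matched distal pairs lay between, with 64.8% that overlapped none and 5.16% that overlapped all 6. In the most widened quintile of these pairs, described below, 49.3% overlapped none. Stronger gained peaks held c-Fos more often: the mean share over biological samples was 19.5% ± 3.24 in the lowest score quintile of gained distal peaks and 41.7% ± 5.85 in the highest (SD, n = 4). Per 100 kb of peak, the highest quintile held 16.6 ± 2.68 c-Fos centres and the lowest 12.4 ± 2.29 (SD, n = 4), with 12.1 and 11.8 in the 2 quintiles above the lowest. The ratio of the densities at the ends was smaller than that of the shares, and median widths were 2493 bp and 1435 bp. By share, the lowest sample of the highest quintile, at 34.4%, was above the highest sample of the lowest quintile, at 22.2%. Among lost peaks the share was 6.73% ± 1.94 in the lowest and 7.54% ± 3.01 in the highest quintile (SD, n = 4). Both shares come from the same libraries, and their difference within each sample was not tested. The median width was 1413 bp and 2372.5 bp, and c-Fos centres per 100 kb numbered 4.22 ± 1.28 and 2.97 ± 1.17 (SD, n = 4). Even among gained distal peaks with a score of at least 200, 144 of 576 (25%, Wilson 95% interval 21.6 to 28.7%) overlapped no peak of the 11 KCl libraries of c-Fos, FosB and JunB. Among lost distal peaks of that score, 74.3% (70.9 to 77.4%) overlapped none.

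The strongest single peaks show both cases. The gained peaks on chromosome 11 and on chromosome 5 named above, the highest by score, overlapped no AP-1 peak in any of the 11 KCl libraries. The gained peak on chromosome 19 from 16401252 to 16404866 overlapped c-Fos in 6 of 6 libraries, FosB in 3 of 4 and JunB in the single library. The peak on chromosome 14 overlapped c-Fos in 5 of 6. Of the 5 strongest lost peaks, 4 overlapped no AP-1 peak after KCl, and the peak on chromosome 5 from 37472407 to 37476851 overlapped c-Fos in 1 of 6 libraries. All of the 3 distal peaks that widened most overlapped c-Fos in 6 of 6 libraries, and none of the 3 that narrowed most overlapped it in any. Among the widened ones, the peak on chromosome 1 from 172961954 to 172969443 also overlapped c-Fos in 3 of 4 unstimulated libraries. Those on chromosomes 15 and 4 did so in 0 of 4. Over the whole most widened quintile described below, 12.1% of pairs overlapped c-Fos in all 6 libraries. In the most narrowed quintile 75.0% overlapped it in none, so its absence from these 3 was the common case. The largest rank changes were less uniform. Of the 5 largest rises, 3 overlapped c-Fos in 4 to 6 libraries and 2 in 1 of 6. Of the 5 largest falls, 4 overlapped no AP-1 peak, whereas the peak on chromosome 9 from 112001446 to 112008005 overlapped c-Fos in 6 of 6 libraries, FosB in 2 of 4 and JunB in the single library. Without stimulation that peak overlapped c-Fos in 1 of 4 libraries.

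Among distal peaks present in both conditions, the share with c-Fos was higher at each step from narrowed to widened peaks. Matched distal pairs were divided into quintiles of the log2 width ratio, from the most narrowed to the most widened. In the most widened quintile c-Fos lay in 38.2%, 23.2%, 33.7% and 29.3% of pairs in biological samples 3, 4, 5 and 6. In the most narrowed quintile it lay in 15.6%, 6.33%, 12.1% and 9.05%. The lowest mean of the widened quintile was above the highest mean of the narrowed one, although single libraries of different samples overlapped: the sc52 library of sample 4 gave 14.99% in the widened quintile, and the sc7202 library of sample 3 gave 18.8% in the narrowed one. Within each of the 6 libraries the widened quintile had the higher share. The means along the quintiles were 10.8%, 13.4%, 16.6%, 20.2% and 31.1%, and the order was the same in all 4 samples. The difference between the ends was 20.3 points ± 2.50 (SD, n = 4; positive in 4 of 4 samples; exact two-sided sign-flip permutation p = 0.13, adjusted p = 0.13). It was 13.5 points with c-Fos peaks of a score of at least 100 alone. The joint interval of both peaks, in which c-Fos was counted, had a median of 2762 bp in the most widened and 2719.5 bp in the most narrowed quintile. The KCl score moved with the width change, at medians of 297 in the most widened and 115 in the most narrowed quintile, and its part in the difference was tested only in the middle of the range. In pairs between the quartiles of the KCl score, an alternative added after this was seen, the difference was 14.0 points ± 1.42 (SD, n = 4).

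**Figure D4:**
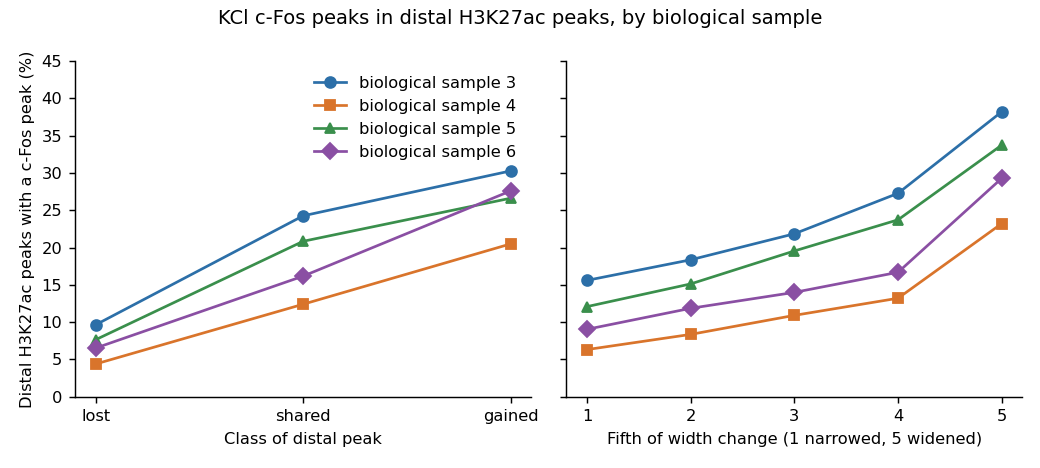
Share of distal H3K27ac peaks that overlap a KCl c-Fos peak (vertical axis, %), with 1 line for each of biological samples 3 to 6; left, lost, shared and gained distal peaks, and right, matched distal pairs by quintile of the width change. In every sample the share goes up from lost to gained peaks and from the most narrowed to the most widened quintile.

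The score rank change gave a like result. The mean c-Fos share was 12.46% in the quintile of distal pairs with the largest fall in rank and 30.7% in that with the largest rise. By sample, the share with the largest rise was 37.8%, 22.3%, 34.0% and 28.9% in biological samples 3, 4, 5 and 6, and with the largest fall 17.3%, 7.53%, 14.1% and 10.9%. The difference was 18.3 points ± 2.57 (SD, n = 4; positive in 4 of 4 samples; exact two-sided sign-flip permutation p = 0.13, adjusted p = 0.13). It was 12.04 points with c-Fos peaks of a score of at least 100 alone. Width and rank come from the same H3K27ac reads, so this is not a second independent result. CBP and H3K4me1 sites followed the order of the width change in part, since 23.8% of the most narrowed and 35.6% of the most widened pairs held 1, with 25.4% in the middle quintile. They did not follow the order of the rank change. There the shares were 26.9% in the quintile with the largest fall, 24.5% in the middle and 36.0% with the largest rise.

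c-Fos was also denser in the stretches that acetylation had gained at the edge of shared peaks. The parts of matched distal pairs covered after KCl alone made up 3.59 Mb, those covered in silenced neurons alone 3.89 Mb, and those covered in both 31.3 Mb. Single flanks were short, with medians of 169 bp after KCl alone and 178 bp in silenced neurons alone. The flanks come from the same pairs as the width change, so this is not a further independent result. c-Fos peak centres per 100 kb numbered 5.26, 2.80, 4.43 and 4.18 in the KCl-only flanks in biological samples 3, 4, 5 and 6, against 1.75, 0.681, 1.54 and 1.08 in the unstimulated-only flanks. All 4 sample means of the first were above all 4 of the second, although single libraries overlapped, with 1.78 in the KCl-only flanks for sc52 of sample 4 and 1.98 in the unstimulated-only flanks for sc7202 of sample 3. The difference was 2.91 ± 0.58 centres per 100 kb (SD, n = 4; positive in 4 of 4 samples; exact two-sided sign-flip permutation p = 0.13, adjusted p = 0.13). With c-Fos peaks of a score of at least 100 alone, the difference was 1.52 centres per 100 kb. Both flanks held fewer centres than the part covered in both conditions, with 7.53 ± 2.31 per 100 kb.

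Within a peak, c-Fos lay mostly near the middle. When distal peaks were divided into 10 equal bins from start to end, the middle 2 bins held 51.0% ± 1.55 of the c-Fos centres in gained peaks (SD, n = 4), 48.0% ± 1.64 in shared KCl intervals and 39.2% ± 1.71 in lost peaks. The 2 end bins together held 5.00% ± 0.61, 4.17% ± 0.65 and 6.46% ± 0.93. The few c-Fos peaks found in lost acetylation were therefore more evenly placed along it than those in gained acetylation, although gained and lost peaks were nearly the same width, with medians of 1837 bp and 1774 bp.

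**Figure D5:**
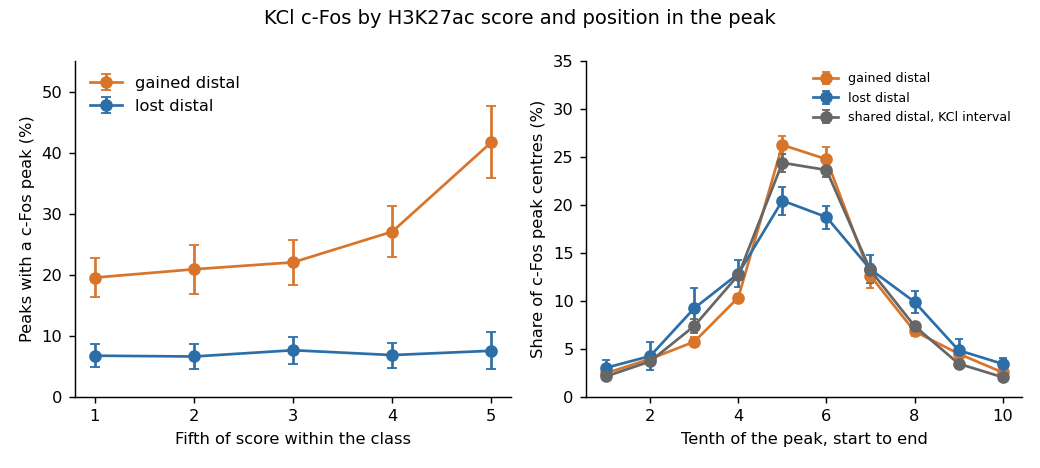
Left, share of gained (orange) and lost (blue) distal peaks with a KCl c-Fos peak (%), by score quintile within the class; right, share of c-Fos peak centres (%) in each of 10 equal bins along gained, lost and shared distal peaks. Points are means and bars SD over 4 biological samples; the gained share goes from 19.5% to 41.7% while the lost share stays between 6.60% and 7.63%, and the middle 2 bins hold 51.0% of centres in gained and 39.2% in lost peaks.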

How the data were processed

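ChIP-seq peak lists from mouse cortical neurons were used as deposited. The submitters' processing notes name BWA as the aligner and mm9 as the build, without a version. Peak names carry the name MACS, per the deposited files; the sources used here give neither its version nor its control library. The deposited lists give positions and the authors' score for each peak. Per the labels, each H3K27ac list merges biological samples 1 and 2, and every distal peak was found in the whole-genome list. Depth is unknown, so intervals cover counting error alone.

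Overlap was at least 1 bp. Width and rank changes used peaks that overlap exactly 1 peak of the other list. c-Fos shares were averaged within a biological sample and compared by exact sign-flip permutation tests over 4 biological samples, both shares coming from the same libraries; whether these are separate cultures is not stated beyond the labels' numbers, so a p-value measures the spread between them alone. The peaks and comparisons were chosen with earlier results of these data known. Peaks were named by rule: the 5 gained and 5 lost distal peaks of highest score, the 5 largest rank rises and falls, the 3 largest and smallest width ratios, and the 3 widest peaks, largest domains and longest runs; the text gives the leading ones. Neighbour comparisons, c-Fos by score quintile, counts of libraries per peak and peaks of score 200 or more without AP-1 were added after other results were seen.

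Alternatives were stricter scores, other overlap rules, lists of the same length, other thresholds and rankings, single libraries, sc52 alone, FosB, each biological sample left out, and no replicate block. On lists simulated from the 30239 unstimulated peaks, 100% of 5957 planted losses, 4000 gains and 677 widened peaks were found and 0% of the others called. The planted changes were free of noise and well past the thresholds. This therefore checks the overlap code alone and not how accurately gains and losses were called in the real lists. Knockdown lists, the combined c-Fos list and input DNA were not analysed here, and gene assignment and sequence were left out for want of an mm9 genome. Python 3.11.15, numpy 2.4.6, scipy 1.17.1, pandas 2.3.3 and matplotlib 3.10.9 were used.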

Additional observations from a re-analysis of the deposited data

How the results depend on the processing

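With 1 merged list per condition and unknown depth, H3K27ac differences have no replicate error. The gained share of distal peaks was 24.7% when peaks within 1 kb counted as shared, 15.3% for KCl peaks with a score of at least 100 and 27.4% with lists of the same length; the lost share was 28.6%, 18.3% and 28.6%. Distal losses exceeded distal gains in each, whereas over the whole genome lists of the same length gave 19.2% gained and 19.1% lost, against 18.1% and 20.2% in the full lists. The median rank change of distal pairs was -3.86 points with a score of at least 100 in both lists, -3.53 with ranks in each full list, and 0.16, the reverse direction, when ranked among distal pairs alone. For non-distal pairs it was 3.96 without scores of 3100 or more, 1.93 with full-list ranks and -0.86, reversed, among non-distal pairs alone. A 2-fold width threshold left 153 wider and 152 narrower distal and 44 and 3 non-distal pairs; 10 rank points gave 2835 up and 4465 down distal and 2778 and 856 non-distal pairs.

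The c-Fos tests used the biological sample as the replicate block, with an exact sign-flip permutation p = 0.13 for each of the 4. Without the replicate block the differences were 19.2 (gained minus lost), 20.3 (width), 18.3 (rank) and 2.91 per 100 kb (flanks), each with exact permutation p = 0.0286. That setting ignores that both values of a difference come from the same libraries, so its p-value is not read as support. Over the 6 single libraries the differences were 18.9, 20.1, 18.1 and 2.88, with exact sign-flip permutation p = 0.03125. Some libraries share a sample, so this p-value is not read as support either. Leaving out each biological sample gave 18.6 to 20.2, 19.6 to 21.5, 17.5 to 19.4 and 2.71 to 3.17. With c-Fos scores of at least 100 they were 12.2, 13.5, 12.04 and 1.52, each over 1.5 times smaller and positive in 4 of 4 samples. Gained and lost peaks with scores from 50 to 100, an added setting, differed by 13.6 points.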
